A study of Mus musculus with 6 samples.

Results

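Ribosome biogenesis and nucleolar genes were examined in bone marrow myeloerythroid progenitors with and without an active form of Notch2. The list held 50 genes. They were matched by exact symbol to the platform annotation, and 49 of them had a probe set assigned to that gene alone. Mrto4, an assembly factor of the large subunit, had none and was left out. All 49 passed the filter on dim probe sets, among 12837 genes tested in all. Where a gene had several probe sets, the brightest on average over the 6 arrays stood for it. The list was not chosen by its values here, but earlier results of these data were known when it was drawn up.

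The cells were sorted as lineage negative, cKit+ and Sca1-, a gate that holds the progenitors of red cells, platelets, granulocytes and monocytes. ICN2 is the intracellular domain of the receptor Notch2, which is active without ligand. ICN2-positive mice were Rosa-lsl-ICN2 Mx1-cre+ males, in which Cre recombinase under the interferon-inducible Mx1 promoter removes a stop cassette ahead of the transgene. ICN2-negative mice were Mx1-cre+ females from the same litters, so both groups carried Cre. Both were also given polyIC, which induces interferon, in 3 doses of 20 mcg per g at 6 weeks of age, and cells were taken 1 week after the last dose. Each group had 3 arrays. Every ICN2-negative sample was female and every ICN2-positive sample male, so the effects of genotype and of sex cannot be told apart. Mx1-driven Cre acts in every cell that responds to interferon, so the transgene was not limited to the sorted cells. Whether replicates were separate animals is not said in the labels, so the p-values cover the spread between these samples alone, and that spread may be technical.

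Ribosomes are built in the nucleolus, where RNA polymerase I transcribes the long ribosomal RNA precursor. Small nucleolar ribonucleoproteins, or snoRNPs, modify the precursor, and assembly factors cut and fold it into a small and a large subunit together with ribosomal proteins. Many genes of this pathway are direct targets of the transcription factor Myc, which binds the E-box sequence. Growing and dividing blood progenitors make ribosomes at a high rate, and inherited defects in the pathway often present as anemia or marrow failure.

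The promoters are shown first, as a description alone. The stretches printed below bear a motif that lies ahead of the annotated start. Of the 49 genes, 44 had a promoter in the RefSeq table (GRCm38.p6), which holds 250 bases before and 50 after each start. The E-box CACGTG, which reads the same on both strands, was in 9 of 44 promoters (20.5%), against 8.09% of 27025 genes and 8.91% of 17492 protein-coding genes. The motif TCTCGCG, searched on both strands and found as TCTCGCG or CGCGAGA, was in 8 of 44 (18.2%), against 2.92% and 3.93%. Among 98 other biogenesis genes with a promoter, from the wider list whose values follow the role groups, 21 (21.4%) held the E-box and 6 (6.12%) held TCTCGCG. Tsr1 held both motifs, which did not overlap. Capitals mark the motif in each line, the strand is that of the gene, and the genes are those whose motif lies wholly before the start.
Nop2, chr6:125131799-125131852, plus strand: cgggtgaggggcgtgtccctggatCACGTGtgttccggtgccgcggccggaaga
Imp4, chr1:34439684-34439737, plus strand: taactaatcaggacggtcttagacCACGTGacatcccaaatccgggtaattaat
Rrn3, chr16:13780627-13780680, plus strand: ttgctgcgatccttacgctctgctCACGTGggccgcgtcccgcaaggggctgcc
Nop14, chr5:34660153-34660207, minus strand: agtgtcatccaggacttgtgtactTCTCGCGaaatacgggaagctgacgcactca
Nop58, chr1:59684830-59684884, plus strand: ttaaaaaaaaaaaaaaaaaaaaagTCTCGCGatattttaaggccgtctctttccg
Tsr1, chr11:74897990-74898044, plus strand: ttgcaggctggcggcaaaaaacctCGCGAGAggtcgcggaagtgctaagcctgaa
Wdr12, chr1:60098336-60098384, minus strand: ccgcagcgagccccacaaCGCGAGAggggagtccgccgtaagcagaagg
The E-box began 60 bases before the start in Nop2, 121 in Imp4 and 48 in Rrn3, and Rrn3 had a further copy 215 bases before it. These matches are letters in a window and were not tested as binding sites. The median difference was 0.37 (log2) in the 9 genes with an E-box and 0.34 in the 35 without, and 0.30 in the 8 genes with TCTCGCG against 0.39 in the 36 without. The gap between the genes with and without each motif was not tested. Neither motif was found in the promoter windows of Polr1e or Utp14a, the 2 genes that passed the test below.

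All 49 genes had a higher mean in ICN2-positive cells, by 0.04 to 0.80 on the log2 scale, with a median of 0.34 (1.27-fold). Over all 12837 genes, 53% had a higher mean and the median was 0.02. The shift was small for each gene, and only 2 of 49 passed an adjusted p of 0.05 in limma, Polr1e and Utp14a, both higher. Of all genes, 4.36% passed, made up of 2.59% higher and 1.78% lower, so the count of members called was near the background in this fit. It was 10 with a variance trend and robust eBayes (3.7% of all genes higher), 5 with a stricter filter (3.72%) and 28 with array weights (13.6%). By contrast, in 38 of 49 genes all 3 ICN2-positive values lay above all 3 ICN2-negative values, which held for 20.7% of all genes, and in none did they lie below, against 16.9%. The 11 genes whose groups overlapped were Rrn3, Taf1d, Nolc1, Nop56, Dkc1, Nop10, Utp15, Noc4l, Noc3l, Rrs1 and Ddx21. The unadjusted p was under 0.05 for 32 of 49 genes, all higher, against 15.3% of all genes in that direction and 27.4% in either. In this bulk RNA, fewer cells of a type and less RNA per cell cannot be told apart. The arrays were also quantile normalized, so a change in total RNA per cell would not appear.

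**Figure D1:**
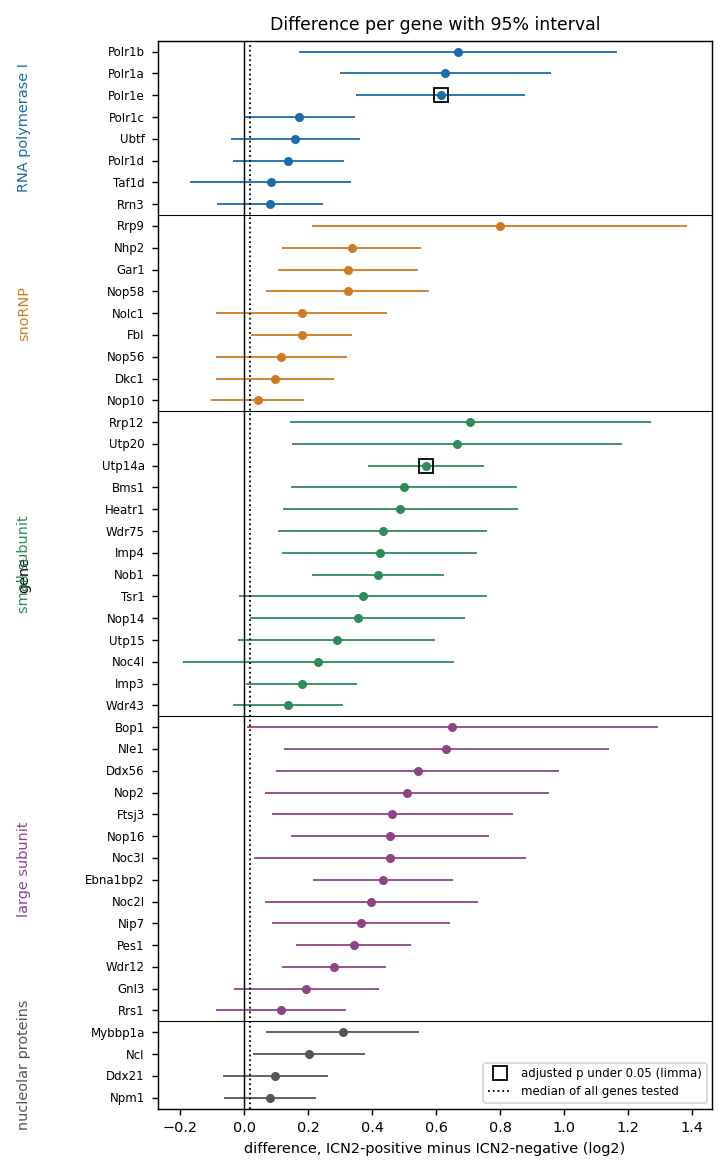
Difference between ICN2-positive and ICN2-negative cells (log2, horizontal axis) for each of 49 genes, grouped by role, with points for the estimate, bars for the 95% interval from limma and squares for an adjusted p under 0.05. All points lie to the right of 0, between 0.04 and 0.80, and only Polr1e and Utp14a carry a square.

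ICN2-positive replicate 1 stood apart from the other arrays. It correlated at 0.984 and 0.987 with ICN2-positive replicates 2 and 3 over all probe sets, which correlated at 0.995 with each other. The progenitor genes Kit, Gata1, Gata2, Klf1, Cd34, Mpo and Cebpa were all measured. Mpo, the peroxidase of granulocyte progenitors, lay at 14.00, 14.03 and 14.08 (log2) on the ICN2-negative arrays and at 11.71, 13.69 and 13.63 on the ICN2-positive ones. Cd34 and Cebpa, further genes of early and granulocyte progenitors, differed by -1.35 and -1.74. Their ICN2-negative means were 12.38 and 12.72. On ICN2-positive replicates 1, 2 and 3 Cd34 lay at 9.50, 11.99 and 11.60, and Cebpa at 8.73, 12.26 and 11.96. Much of both differences thus came from replicate 1. Kit (0.12), Gata1 (0.08), Gata2 (0.24) and Klf1 (0.16) had higher means. None of the 7 was called, against 4.36% of all genes, and their median difference was 0.08. For 3 of the 7 (Mpo, Cd34 and Cebpa) all ICN2-positive values lay below all ICN2-negative ones, against 16.9% of all genes. For the other 4 the groups overlapped. The summed intensity of the 7 genes was 45087 to 46502 in ICN2-negative and 22952 to 41648 in ICN2-positive samples, lowest in replicate 1. Of 6 genes of mature lineage cells, 4 were measured, with a sum of 116.4 to 527.2 in ICN2-negative and 146.3 to 256.5 in ICN2-positive samples. Itgam and Ms4a1 were below the filter limit on all 6 arrays. The T cell gene Cd3e was higher in mean by 1.35 (log2, adjusted p = 0.116 in limma) and the B cell gene Cd79a differed by -1.50 (adjusted p = 0.27), both at dim levels. The part of these shifts in the biogenesis result was not tested.

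The biogenesis genes moved together from array to array. Measured from each gene's ICN2-negative mean, the median of the 49 genes lay at 0.14, -0.13 and -0.02 (log2) on ICN2-negative replicates 1, 2 and 3 and at 0.47, 0.27 and 0.30 on ICN2-positive replicates 1, 2 and 3. The lowest ICN2-positive array was thus 0.13 above the highest ICN2-negative one, while the ICN2-negative arrays themselves spanned 0.27. ICN2-positive replicate 1 held the highest of the 6 values for 44 of 49 genes, and ICN2-negative replicate 2 the lowest for 42. ICN2-negative replicate 1 was the highest of its group for 44 genes. This shared spread within each group entered the error of every gene. Without ICN2-positive replicate 1 the median difference was 0.28 and all 49 means were higher. The count of genes without overlap was 38, against 25.8% of all genes in that comparison of 2 arrays with 3. A gene without overlap stays so when an array is left out, so this count could not fall and is no check on that array. The difference between 3′ and 5′ control probe sets, a sign of RNA length, peaked on ICN2-positive replicate 1 for 3 of 4 controls. For beta-actin it was 1.01 (log2) there and 0.71 to 0.85 elsewhere. Its part in the result was not tested, and the values without that array are those given above.

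**Figure D2:**
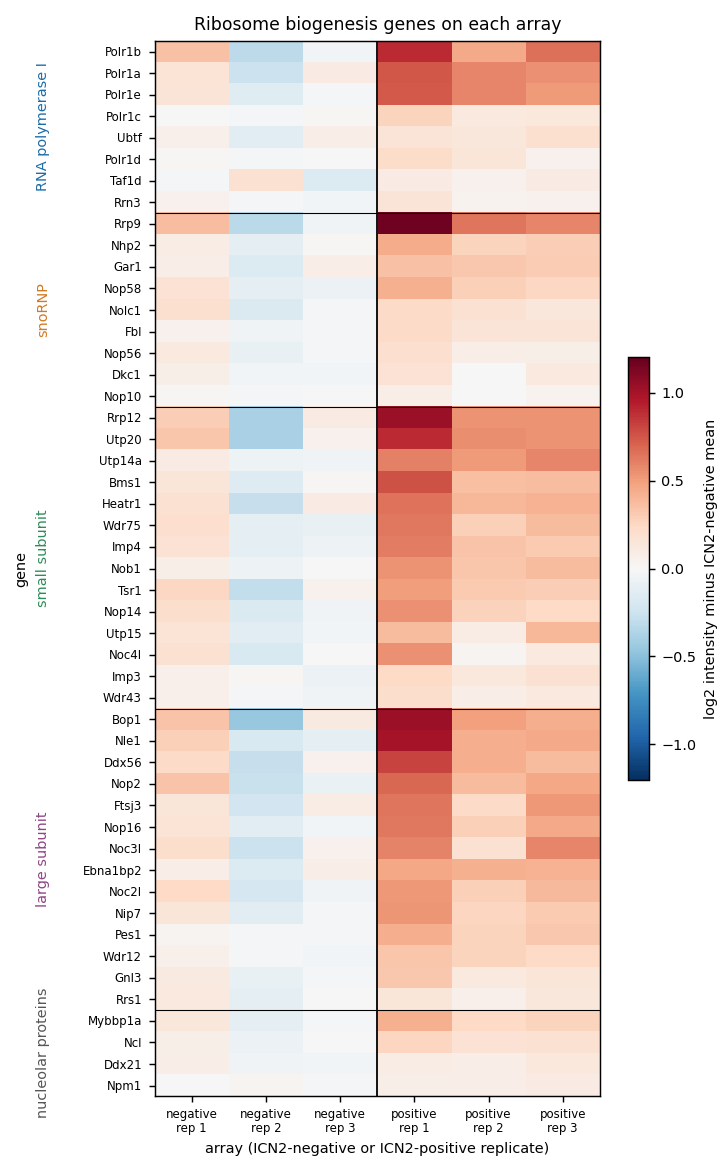
Log2 intensity of 49 genes (rows, grouped by role) on the 6 arrays (columns) as the deviation from each gene's ICN2-negative mean, with red for higher and blue for lower. ICN2-positive replicate 1 is the reddest column, with the highest value for 44 genes, and ICN2-negative replicate 2 is the bluest, with the lowest value for 42.

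RNA polymerase I and its factors formed a group of 8 genes, of which 1 rose, 7 missed the threshold and none fell, where 2.59% of all genes rose. Their median difference was 0.17 (log2), and 6 of 8 had no overlap, against 20.7% of all genes. Polr1e, a subunit that helps the enzyme start and extend transcripts, had log2 intensities of 10.94, 10.64 and 10.77 on the ICN2-negative arrays and 11.53, 11.38 and 11.30 on the ICN2-positive arrays. The groups did not overlap, and ICN2-positive replicate 1 was the highest. Polr1e rose 1.53-fold, by 0.61 ± 0.11 (log2, estimate ± SE, 3 arrays per group), with an adjusted p of 0.0418 in limma. Its other probe set rose by 0.88 (adjusted p = 0.0273 over probe sets), and the one used for the gene had an adjusted p of 0.0537 in that probe set fit. The call was lost on leaving out any 1 of the 6 arrays, with differences of 0.54 to 0.69 and adjusted p-values of 0.0564 to 0.151.

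Polr1a, the largest subunit of the enzyme, was at 9.83, 9.41 and 9.76 in ICN2-negative and 10.41, 10.25 and 10.21 in ICN2-positive samples. Its groups did not overlap, and the difference of 0.63 ± 0.13 did not pass (adjusted p = 0.0617 in limma). Polr1b, which forms the catalytic center together with Polr1a, was at 9.66, 8.99 and 9.28 against 10.20, 9.77 and 9.97. Here ICN2-negative replicate 1 came close to the lowest ICN2-positive value, and the difference was 0.67 ± 0.20 (adjusted p = 0.112 in limma). The subunits that polymerase I shares with polymerase III differed less. Polr1c was higher in mean by 0.17 and Polr1d by 0.14, both without overlap and neither called.

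Ubtf, which bends ribosomal DNA and keeps its genes open, was at 12.83, 12.64 and 12.85 in ICN2-negative and 12.93, 12.91 and 12.96 in ICN2-positive samples. The groups were apart by less than the spread of the ICN2-negative arrays. The difference was 0.16 ± 0.08, with a 95% interval from -0.04 to 0.36 (adjusted p = 0.262 in limma). Rrn3, which joins the polymerase to the promoter, and Taf1d, a part of the promoter selectivity factor, each differed by 0.08 with overlapping groups. Taf1d was the one gene with its highest value on an ICN2-negative array, at 11.28 on replicate 2.

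The snoRNP group held 9 genes, none of which passed the test in either direction in limma, while 5 had an unadjusted p under 0.05, against 15.3% of all genes higher. Their median difference was 0.18 (log2), and 5 of 9 had no overlap, against 20.7% of all genes. These proteins form the core of the particles that guide methylation (box C/D) and pseudouridylation (H/ACA) of ribosomal RNA. Rrp9, a protein specific to the snoRNP that guides early cleavage of the precursor, had the largest difference of all 49 genes. It was at 9.90, 9.20 and 9.48 in ICN2-negative and 10.69, 10.17 and 10.11 in ICN2-positive samples. Both groups were widely spread, and the difference of 0.80 ± 0.24 (1.74-fold) had an adjusted p of 0.11 in limma.

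The H/ACA genes had unequal differences in their brightest probe sets, which were not tested against each other. Nhp2, which binds the guide RNA, was at 12.59, 12.39 and 12.52 in ICN2-negative and 12.95, 12.77 and 12.79 in ICN2-positive samples, a difference of 0.34 ± 0.09 (adjusted p = 0.0886 in limma). Gar1, which helps the substrate RNA load and leave, was at 12.82, 12.58 and 12.83 against 13.10, 13.06 and 13.04, a difference of 0.32 ± 0.09 (adjusted p = 0.0971 in limma). Neither overlapped between groups. Dkc1, the pseudouridine synthase, whose human gene is mutated in X-linked dyskeratosis congenita, was at 12.53, 12.43 and 12.43 against 12.63, 12.47 and 12.58. Its groups overlapped, and its difference was 0.10 ± 0.07 with an interval from -0.09 to 0.28. Nop10, the smallest protein of the complex, had the lowest difference of the list at 0.04, with an interval from -0.10 to 0.19. Further probe sets differed by 0.15 and 0.27 for Dkc1, 0.18 for Nop10 and 0.45 for Nhp2, and Gar1 had 1 probe set.

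Among the box C/D proteins, Fbl, the methyltransferase fibrillarin, was at 13.50, 13.41 and 13.43 in ICN2-negative and 13.68, 13.61 and 13.60 in ICN2-positive samples. The groups did not overlap, and the difference was 0.18 ± 0.06 (adjusted p = 0.148 in limma). Nop58, a scaffold of the particle, differed by 0.32 without overlap, while its paralog Nop56 differed by 0.12 and Nolc1, a chaperone of snoRNPs, by 0.18, both with overlap. None of the 3 was called.

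The small subunit group held 14 genes, of which 1 rose, none fell and 13 did not pass, where 2.59% of all genes rose. Their median difference was 0.42 (log2), and 12 of 14 had no overlap, against 20.7% of all genes. Utp14a, a component of the small subunit processome, was at 10.29, 10.14 and 10.16 in ICN2-negative and 10.81, 10.71 and 10.78 in ICN2-positive samples. The values within each group were close together and the groups were far apart. Utp14a rose by 0.57 ± 0.07 (1.48-fold, adjusted p = 0.0214 in limma). The gene lies on the X chromosome, and the groups differ in sex. Dkc1 was the only other member with a promoter on that chromosome. The other Utp14a probe set was dim, at a mean of 5.29, and differed by -0.12. As the mean of both probe sets Utp14a differed by 0.22 and was not called (adjusted p = 0.341). The Utp14a call was also lost on leaving out ICN2-negative replicate 2 or 3 (adjusted p = 0.0985 and 0.101 in limma) or ICN2-positive replicate 3 (0.0858), with differences of 0.54 to 0.62 over the 6 fits that each left out 1 array.

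Nob1, the nuclease that makes the last cut of the small subunit RNA, was at 10.15, 10.02 and 10.08 in ICN2-negative and 10.62, 10.42 and 10.46 in ICN2-positive samples. Its groups did not overlap, and its difference of 0.42 ± 0.08 lay just outside the threshold (adjusted p = 0.0555 in limma). Bms1, a GTPase of the processome, was at 12.19, 11.89 and 12.06 against 12.81, 12.41 and 12.42. ICN2-positive replicate 1 stood above both others of its group, and the difference was 0.50 ± 0.14 (adjusted p = 0.103 in limma). Of the remaining 11 genes, Rrp12 (0.71), which serves export of the subunits, and the large scaffold proteins Utp20 (0.66) and Heatr1 (0.49) differed the most. Wdr75, Imp4, Nop14, Utp15, Noc4l, Imp3 and Wdr43, which act in early small subunit particles, differed by 0.43 down to 0.14, and Tsr1, a factor of late particles, by 0.37. Among these 11, the groups overlapped for Utp15 and Noc4l.

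The large subunit group held 14 measured genes, none of which passed the test in either direction in limma, while 12 had an unadjusted p under 0.05, against 15.3% of all genes higher. Their median difference was 0.45 (log2), the highest of the role groups, and 12 of 14 had no overlap, against 20.7% of all genes. Ebna1bp2, an early assembly factor, was at 12.33, 12.09 and 12.33 in ICN2-negative and 12.72, 12.67 and 12.66 in ICN2-positive samples. The ICN2-positive values were close together, and the difference was 0.43 ± 0.09 (adjusted p = 0.0575 in limma). Pes1, Bop1 and Wdr12 form the PeBoW complex, which is needed to process the large subunit RNA. Pes1 was at 11.56, 11.49 and 11.51 against 11.96, 11.79 and 11.84, a difference of 0.34 ± 0.07 (adjusted p = 0.0611 in limma). Wdr12 was at 12.60, 12.51 and 12.50 against 12.87, 12.81 and 12.78, a difference of 0.28 ± 0.07 (adjusted p = 0.0738 in limma). Bop1 had the largest difference of the trio and also the largest error, at 0.65 ± 0.26 (adjusted p = 0.178 in limma). All 3 were without overlap, and ICN2-positive replicate 1 was the highest array for each.

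Of the other 10 large subunit genes, Nle1, which works with the factors that release late particles, differed by 0.63, the helicase gene Ddx56 by 0.54 and the RNA methyltransferase gene Nop2 by 0.51. Ftsj3, Nop16, Noc3l, Noc2l and Nip7, all assembly factors, differed by 0.46 down to 0.37. Gnl3, or nucleostemin, a nucleolar GTPase high in stem and progenitor cells, differed by 0.19, and Rrs1, which brings in the short separate ribosomal RNA of the large subunit, by 0.11. Nop16 had the smallest adjusted p of those named in this paragraph, at 0.0969 in limma. The groups overlapped for Noc3l and Rrs1.

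The 4 abundant nucleolar proteins with several roles had the lowest median difference, 0.15 (log2), and none passed in limma, where 2.59% of all genes rose. An unadjusted p under 0.05 was found for 2 of 4, against 15.3% of all genes higher. In 3 of 4 the groups had no overlap, against 20.7% of all genes. Ncl, nucleolin, was at 13.27, 13.12 and 13.20 in ICN2-negative and 13.46, 13.37 and 13.38 in ICN2-positive samples, a difference of 0.20 ± 0.07 (adjusted p = 0.141 in limma). Npm1, nucleophosmin, a histone and ribosome chaperone often mutated in myeloid leukemia, was at 13.88, 13.92 and 13.86 against 13.96, 13.97 and 13.99. The Npm1 groups did not overlap, yet the difference of 0.08 ± 0.06 had an interval from -0.06 to 0.23. Mybbp1a, a nucleolar protein that binds transcription factors, was at 13.04, 12.80 and 12.88 against 13.33, 13.14 and 13.17, a difference of 0.31 ± 0.10 (adjusted p = 0.118 in limma). Ddx21, an RNA helicase, was at 12.95, 12.82 and 12.83 against 12.95, 12.95 and 12.99, and its groups overlapped.

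**Figure D3:**
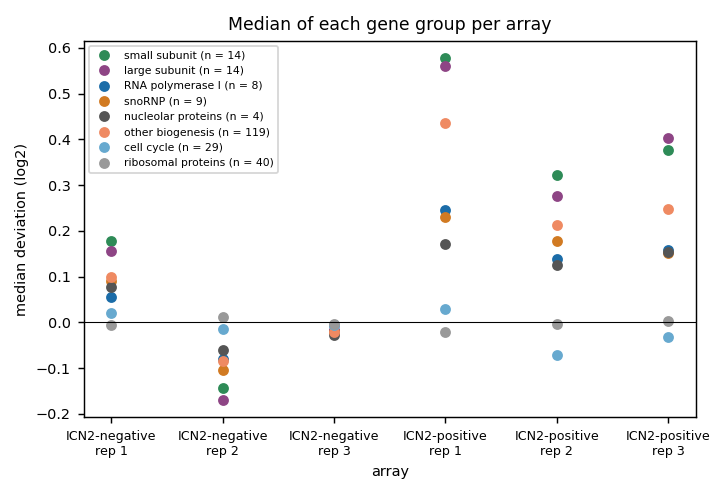
Median deviation from the ICN2-negative mean (log2, vertical axis) on each of 6 arrays for the 5 role groups and for 3 lists outside them, 1 point per list and array. The 5 role groups and the other biogenesis genes lie between 0.13 and 0.58 on the ICN2-positive arrays, while cell cycle and ribosomal protein genes lie between -0.07 and 0.03.

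The size of the difference went with the brightness of the probe set. Intensities of different probe sets do not rank genes by abundance, so brightness is used only as a property of the measurement. The 25 genes with a mean log2 intensity under 12 had a median difference of 0.46, and 22 of them (88%) had no overlap, against 20.1% of all genes under 12. The 24 genes at or above 12 had a median of 0.18, and 16 of them (66.7%) had no overlap, against 24.5% of all genes at or above 12. Across the 49 genes, brightness and difference had a Spearman correlation of -0.79, given as a description since the genes share arrays and normalization. Over all genes the size of the difference, without its sign, had a median of 0.20 under 12 and 0.09 at or above 12. Its Spearman correlation with brightness was -0.14 over all genes, weaker than the -0.79 of the members. Under 12 it was -0.0024 for all genes and -0.67 for members. At or above 12 it was -0.28 and -0.40.

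The same was seen within genes. Of the 49, 33 had at least 2 tested probe sets, and in 24 of these the next brightest probe set had a larger difference than the brightest, which is the one used above (72.7%, against 54.1% of 6054 such genes overall). The median over these 33 genes was 0.29 in the brightest and 0.38 in the next. For Ddx21 the values were 0.10 and 0.57, for Ubtf 0.16 and 0.48, and for Nolc1 0.18 and 0.60. These 3 genes were picked after their values were seen. Of all 50 further probe sets tested, 49 had a higher mean in ICN2-positive cells, with a median of 0.36. The exception was the dim probe set of Utp14a. For the next brightest probe set alone, the mean was higher in 32 of 33 members, against 3524 of 6054 such genes overall. Only the further probe set of Polr1e was called, and the share called over all probe sets was not computed. These probe sets measure the same genes on the same arrays, so they are not separate support.

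**Figure D4:**
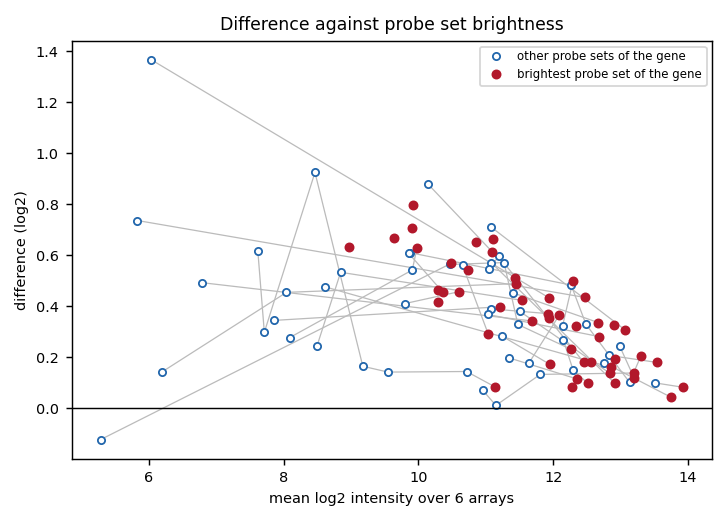
Difference between groups (log2, vertical axis) against mean log2 intensity over 6 arrays (horizontal axis) for all tested probe sets of the 49 genes, with filled points for the brightest probe set of each gene, open points for its others and lines joining probe sets of a gene. Filled points fall from near 0.80 at dim levels to near 0.04 at the bright end, and a single open point lies below 0.

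Further genes of ribosome production behaved much like the members. A list of 122 other polymerase I, processome, assembly and RNA exosome genes had 119 measured. Of these, 2 rose, none fell and 117 did not pass, where 2.59% of all genes rose, and the median difference was 0.31 (log2). In 79 (66.4%) all ICN2-positive values lay above the ICN2-negative ones, against 20.7% of all genes, and in 3 (Krr1, Riok3 and Rpf2) all lay below, against 16.9%. Rrp15, a nucleolar factor of the large subunit, rose by 0.57 ± 0.09 (adjusted p = 0.0348 in limma), and Polr2h, a subunit shared by the 3 nuclear RNA polymerases, by 0.49 ± 0.09 (adjusted p = 0.0477 in limma). The Polr2h call was lost on leaving out any 1 of the 6 arrays (adjusted p = 0.057 to 0.16 in limma). Rrp15 kept its call only without ICN2-negative replicate 1, and reached 0.0516 to 0.136 without any other array. The 4 genes with a lower mean were Krr1 (-0.77), Riok3 (-0.27), Nsa2 (-0.10) and Rpf2 (-0.05), named after their values were seen, and none was called. Without ICN2-positive replicate 1 the median of this list was 0.23.

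Ribosomal protein and cell cycle genes had median differences near 0. The 40 ribosomal protein genes measured had a median difference of -0.01 (log2), 14 with a higher mean and 26 with a lower one. None was called in limma, against 4.36% of all genes, and none had an unadjusted p under 0.05, against 27.4%. Their probe sets were the brightest of the lists, with a median intensity of 14.04 against 11.95 for the biogenesis genes. Biogenesis genes, too, differed less at high brightness, and the difference between these lists was not tested. The 29 cell cycle genes, at a median intensity of 12.37, had a median difference of -0.03, 10 with a higher mean. None of the 29 was called in limma, against 4.36% of all genes, and 1 had an unadjusted p under 0.05, against 27.4%. The differences between the lists were not tested.

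**Figure D5:**
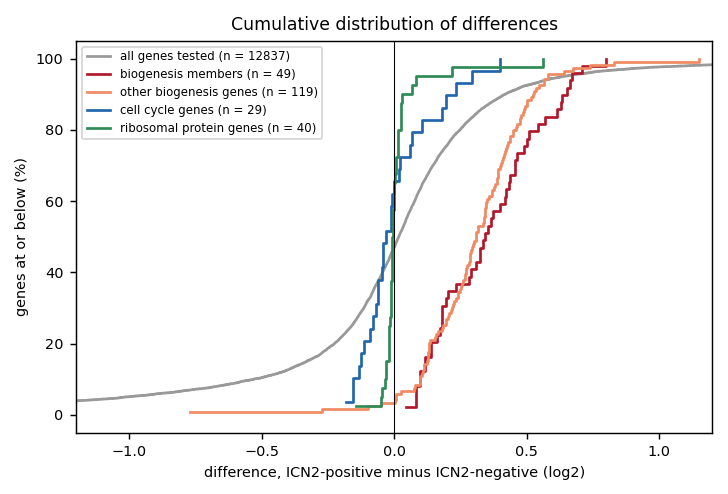
Share of genes (%, vertical axis) at or below each difference between groups (log2, horizontal axis, shown from -1.2 to 1.2) for all genes tested and 4 lists. The curve of the 49 biogenesis members starts at 0.04 and has its median at 0.34, while cell cycle and ribosomal protein genes cross their medians at -0.03 and -0.01.

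The Myc family, whose members are known to drive ribosome production, did not move as one. Myc was at 10.26, 9.78 and 9.89 (log2) in ICN2-negative and 10.17, 10.02 and 10.35 in ICN2-positive samples, with overlapping groups and a difference of 0.21 ± 0.15 (adjusted p = 0.436 in limma). Mycn was at 7.74, 6.57 and 4.94 against 8.87, 10.51 and 9.99, without overlap, and its fitted difference of 3.38 ± 0.79 did not pass (adjusted p = 0.0738 in limma). ICN2-negative replicate 3 was under that array's filter limit of 5.29, and the Mycn difference was 2.64 to 4.04 on leaving out 1 array. Mycl was at 6.65, 7.10 and 6.82 against 4.59, 4.90 and 4.31 and fell by 2.26 on the log2 scale (adjusted p = 0.00723 in limma), a fitted value, since all 3 ICN2-positive arrays were under their filter limit. The filter was not redone when an array was left out, and Mycl passed it on the ICN2-negative arrays alone. Without any 1 of these it would have been above the limit on fewer than the 3 arrays required. Those fits are therefore no check on the Mycl call. On leaving out any 1 ICN2-positive array Mycl kept its call (adjusted p = 0.0139 to 0.0284 in limma).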

How the data were processed

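Each probe set had 1 deposited intensity on each array. The authors used RMA, which corrects background, quantile normalizes and summarizes probes, per the submitters' processing notes (version not given in the sources used here). Values were linear and log2 was taken here. Of 45101 probe sets, 64 controls were set aside. Tests took in probe sets above the 40th percentile of their array on 3 or more arrays, namely 27424 probe sets, and 12837 genes by probe sets with 1 assigned gene. Groups came from the labels. Log2 values were fitted without covariates by lmFit and eBayes of limma 3.58.1 (R 4.3.3), with Benjamini-Hochberg adjustment over all genes, and a threshold of 0.05. The fit was also run on simulated data, with noise drawn independently for each gene and added differences larger than those of the members. That run cannot gauge the error or power for the members, which moved together from array to array. Intervals are 95% limma intervals. Genes described in full were those past the threshold, those of smallest p up to 3 per role group, and Fbl, Ncl, Npm1, Polr1a, Ubtf and Dkc1. Of the other lists, called genes, the Myc family and cell markers were named. The members and lists were chosen with earlier results of these data known. Alternatives covered the filter, normalization, variance model, array weights, probe set choice, replicate number and each array left out. The number of arrays limits the precision.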

Additional observations from a re-analysis of the deposited data

How the results depend on the processing

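All members tested had a higher mean under every alternative run, with a median difference of 0.27 (without ICN2-negative replicate 2) to 0.41 (without ICN2-negative replicate 1) on the log2 scale. The filter settings, the variance trend and the replicate block left each member's difference as it was, so its direction could not change there. No setting called a member lower. The number called higher was 2 (2.59% of all genes higher). It was 5 with a stricter filter at the 60th percentile (3.72%), 10 with a variance trend and robust eBayes (3.7%) and 28 with array weights (13.6%). It was 1 with the mean of a gene's probe sets (2.95%) and 0 to 1 with each array left out (0.53% to 2.91%). Over all genes, 560 were called, against 3262 with array weights and 99 to 768 with each array left out. The median of other biogenesis genes was 0.23 to 0.37 with each array left out. Of these genes, 8 were called higher with the stricter filter, 13 with trend and robust eBayes and 57 with array weights. In the other fits 0 to 3 were, where 0.53% to 2.95% of all genes were called higher. Same-numbered arrays of the groups deviated together only weakly, with correlations of 0.18, 0.14 and 0.09, and not every array correlated best with its own number. With the replicate block, 340 genes and 1 member (Nle1) were called, where 1.39% of all genes were called higher. Polr1e was then at an adjusted p of 0.0564 and Utp14a at 0.0527 in limma. The causes of these changes were not tested. No background measurement was used here, so how far brightness limits the differences cannot be given.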
